A study of Mus musculus with 20 samples.

Results

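The genes flanking the locus of Braveheart, a long noncoding RNA of mouse chromosome 18, were followed through 12 libraries of differentiating embryonic stem cells. The members were all rows of the time course table that start in a window of 2.5 Mb of the mouse build mm9 around the locus, from Iigp1 (start 60535682) to Spink13 (end 62901041). This gave 37 genes of the 22102 in that table, of which 34 are protein-coding, 2 are microRNA genes and 1 is a long noncoding RNA by RefSeq. The same 37 symbols were read in a second table of 42115 rows from 8 stem cell and fibroblast libraries (called the discovery set), together with its unannotated long noncoding row between 61804876 and 61806938. The members were chosen and ordered by position, although earlier results of these data were known. The level of Braveheart itself was not analysed here.

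The time course came from E14 embryonic stem cells of strain 129/Ola, all carrying lentiviral short hairpin RNAs and selected with puromycin. There were 3 cultures, with a scrambled hairpin, hairpin A against Braveheart and hairpin B against Braveheart, and each was sampled once at days 0, 3, 6 and 9 of differentiation towards heart muscle. Every culture therefore carried a hairpin vector, and each day had 1 scrambled library that both hairpins were compared with. The discovery set held embryonic stem cells (mESC) of the lines v6.5 and E14 (2 libraries each) and embryonic fibroblasts (MEF, 1 library, genotype Oct4-GFP, strain 129/svJae x C57BL/6). It also held the partially reprogrammed fibroblast lines 11.3 and 11.5 (1 library each), which carry retroviral Oct4, Sox2, c-myc and Klf4, and miPS, an induced pluripotent line with full reprogramming (1 library). Per the labels, embryonic stem and miPS cells grew on irradiated fibroblast feeders that were removed by pre-plating, whereas lines 11.3 and 11.5 grew without feeders. Nothing in the labels says that the 2 libraries of v6.5 or of E14 were separate cultures, so their spread may be technical. The spread of the partially reprogrammed group was between 2 lines, and that of the time course between cultures with different hairpins. The p-values reflect the spread among these libraries alone.

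Braveheart is known as a noncoding RNA needed for embryonic stem cells to enter the heart lineage. Some noncoding RNAs act on genes next to their own locus and others act on genes elsewhere, so the expression of the neighbours under depletion is a usual question for such a locus. The neighbours here include the microRNA genes Mir143 and Mir145, known from smooth muscle and heart, the casein kinase gene Csnk1a1, which acts in Wnt signalling, and the receptor gene Pdgfrb of pericytes and smooth muscle. In the order of the RefSeq annotation of GRCm38.p6, Braveheart and the noncoding gene Carmn lie between Csnk1a1 and Mir145. The unannotated row of the discovery set lies in the same interval of mm9, ending 0.5 kb before Mir145, but the transcript behind its reads was not identified. All gene distances below are from this row, and none was measured from Braveheart. In RNA read from a whole culture, fewer cells of a type and less RNA per cell cannot be told apart.

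Of the 37 genes, 23 reached at least 1 FPKM (fragments scaled to transcript length and library size) in at least 2 of the 12 libraries and were tested. The other 14 were Iigp1, Myoz3, Slc6a7, Cdx1, Csf1r, Pde6a, Arhgef37, Mir143, Ablim3, Sh3tc2, Htr4, Spink10, Spink7 and Spink13. Their highest value was 2.12 FPKM, for Cdx1 in hairpin B at day 0, and 9 of them stayed under 0.5 FPKM in every library. Mir143 and Spink7 were listed at 0 in all 12 libraries. The low values implied relative depths from 0.688 (hairpin A, day 9) to 1.125 (hairpin B, day 9) of the scrambled day 0 library, and 3 reads on a 1 kb transcript were worth 0.233 to 0.386 FPKM depending on the library. At days 6 and 9 the hairpin B culture differed widely from the other cultures. On the first principal component over all genes tested, with 44.0% of the variance, the libraries of scrambled, A and B hairpins lay at 79.9, 73.6 and -29.3 at day 9, against -40.6, -42.7 and -43.8 at day 0. The summed level of 8 cardiomyocyte markers at day 9 was 487, 85.2 and 18.5 FPKM in the same order, and that of 8 pluripotency markers was 798, 949 and 7655 FPKM.

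**Figure D1:**
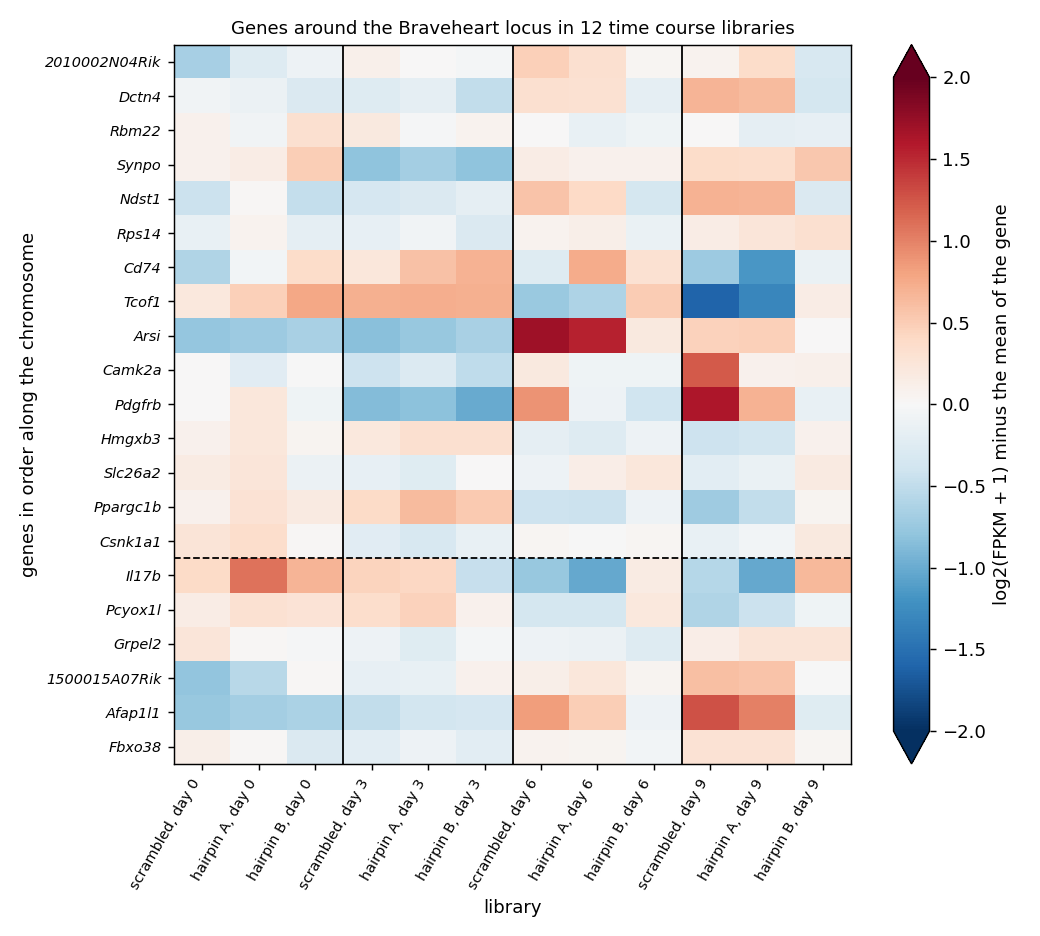
Each row is 1 of 21 tested genes in order along the chromosome (Mir145, listed above 0 in 2 libraries, is left out) and each column is 1 library, grouped by day. Colour gives log2(FPKM + 1) minus the mean of the gene over the 12 libraries, and the dashed line marks the unannotated noncoding row. The day 9 column of hairpin B is the palest of its day for genes such as Tcof1 (49.7 FPKM against 14.1 and 17.5) and Afap1l1 (2.86 FPKM against 10.1 and 8.16).

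The nearest protein-coding gene before the unannotated row was Csnk1a1 (chromosome 18, 61715235 to 61747953), 56.9 kb away. By its median over the libraries it was the second most abundant of the set after the ribosomal protein gene Rps14. Csnk1a1 encodes casein kinase 1 alpha, which marks beta-catenin for degradation. In the scrambled culture Csnk1a1 read 243, 175, 209 and 183 FPKM at days 0, 3, 6 and 9. With hairpin A it read 259, 162, 203 and 195 FPKM on the same days, and with hairpin B 207, 183, 209.6 and 233 FPKM. The ranges of the 3 cultures overlapped over the days, and at day 9 the hairpins stood above the scrambled library by 0.09 (A) and 0.35 (B) on the log2 scale. The 9 other genes of the Wnt destruction complex measured here, such as Apc and Axin1, had a median depletion difference of -0.02 at day 9, and 0 of the 9 passed limma's adjusted threshold at any day.

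After the unannotated row came 6 tested genes within 100 kb, of which Mir145 was the nearest. Il17b (61847588 to 61852191), a cytokine gene 40.6 kb away, read 1.64, 1.76, 0.194 and 0.366 FPKM over days 0, 3, 6 and 9 with the scrambled hairpin, 3.28, 1.71, 0 and 0 FPKM with hairpin A and 2.23, 0.478, 1.26 and 2.19 FPKM with hairpin B. Hairpin A was therefore listed at 0 at days 6 and 9, and hairpin B was the highest library on both days. Pcyox1l (61856490 to 61867289), related to prenylcysteine oxidase, read 14.8, 17.2, 10.3 and 8.44 FPKM in the scrambled, 16.7, 18.7, 10.2 and 9.64 FPKM in the hairpin A and 16.4, 14.2, 15.5 and 12.5 FPKM in the hairpin B libraries of the 4 days. Its scrambled and hairpin A values were lower after day 3, and hairpin B lay above both at days 6 and 9.

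Grpel2, a cochaperone gene of the mitochondrial import motor, stayed between 12.1 and 17.7 FPKM in all 12 libraries, with 17.5, 13.6, 13.6 and 16.1 FPKM in the scrambled, 15.0, 12.2, 13.5 and 17.7 FPKM in the hairpin A and 14.4, 14.3, 12.1 and 17.7 FPKM in the hairpin B culture. Directly beyond it lies the noncoding gene 1500015A07Rik (61886043 to 61887905). Strand-specific counting is stated in no source used here, so reads at the boundary of that gene pair cannot be told apart. The 1500015A07Rik values were 4.06, 6.84, 8.51 and 12.3 FPKM with the scrambled hairpin, 4.96, 6.89, 9.30 and 12.0 FPKM with hairpin A and 7.95, 8.32, 8.11 and 7.75 FPKM with hairpin B. The scrambled and hairpin A libraries were higher on each later day, while the hairpin B libraries stayed within 7.75 to 8.32 FPKM.

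Afap1l1 (61889915 to 61946316), a gene for an actin-associated adaptor protein 83.0 kb beyond the unannotated row, showed the same contrast between cultures. It read 1.71, 2.27, 7.19 and 10.1 FPKM in the scrambled culture, 1.85, 2.56, 5.44 and 8.16 FPKM in the hairpin A culture and 1.95, 2.63, 3.29 and 2.86 FPKM in the hairpin B culture at days 0, 3, 6 and 9. Its change from day 0 to day 9 was 2.03, 1.68 and 0.39 on the log2(FPKM + 1) scale under the scrambled, A and B hairpins. The scrambled library was the highest of the 3 at days 6 and 9 and the lowest at days 0 and 3.

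The microRNA genes closest to the unannotated row could hardly be followed. Mir145 (61807478 to 61807548) was listed at 405.5 FPKM in the scrambled day 9 library and at 227 FPKM in the hairpin A day 0 library, and at 0 in the other 10. This locus is 71 bp long, shorter than the selected fragments, so its FPKM cannot be turned into reads and mature microRNA was not measured. Mir143 was listed at 0 throughout, and in the discovery set both genes had 0 expected counts in all 8 libraries, which allows up to 0.127 to 0.398 CPM (counts scaled to library size) by library.

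Whether depletion moved these neighbours was tested with limma on log2(FPKM + 1), taking the hairpin mean of a day and subtracting its scrambled library. At an adjusted p under 0.05, 0 of the 23 genes passed at days 0, 3, 6 and 9 or in the mean over the days. Over all 14108 genes tested, 0.0213%, 0.0284%, 0.0425%, 0.0354% and 0.0638% passed in the same comparisons, so a count of 0 among 23 genes is near the background. At an unadjusted p under 0.05 there were 0 genes at days 0 and 3, 1 at day 6 (Pdgfrb), 3 at day 9 (Camk2a, Pdgfrb and Mir145) and 2 in the mean (Camk2a and Pdgfrb), against 0.468%, 0.262%, 1.05%, 1.41% and 1.22% of all genes. The median difference of the 23 genes was 0.10, 0.0048, -0.08 and 0.05 at days 0, 3, 6 and 9, beside 0.0056, 0, -0.025 and -0.07 over all genes tested. The spread in this fit came from 4 pairs of hairpin libraries that lay far apart at days 6 and 9, so a gene that missed the threshold is not shown to have stayed level.

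Pdgfrb (61204803 to 61244721) encodes the beta receptor for platelet-derived growth factor and lies 560.2 kb before the unannotated row. It read 2.23, 0.766, 5.00 and 8.92 FPKM at days 0, 3, 6 and 9 with the scrambled hairpin. Hairpin A gave 2.75, 0.833, 2.00 and 4.23 FPKM and hairpin B 2.02, 0.599, 1.45 and 1.89 FPKM. The 3 cultures lay close together at days 0 and 3, and at days 6 and 9 the scrambled library was above both hairpins. The deposited status of both hairpin values of day 9 was low data, which marks a less certain estimate. The depletion difference was -1.15 ± 0.42 (SE) on the log2 scale at day 6 (limma, adjusted p = 1) and -1.35 ± 0.42 at day 9 (limma, adjusted p = 0.873). For hairpin A alone it was -1.002 and -0.92, and for hairpin B alone -1.30 and -1.78.

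Pdgfra, the alpha receptor on another chromosome, read 8.87, 2.995 and 0.399 FPKM at day 6 under the scrambled, A and B hairpins, and 9.48, 5.30 and 0.674 FPKM at day 9. Its depletion differences of -2.06 ± 0.88 and -1.69 ± 0.88 also missed the adjusted threshold (limma, adjusted p = 1 and 0.873). Of the 5 other genes for PDGF ligands and receptors, 4 were tested, and they had 0 calls at any day and a median of -0.16 at day 9. The summed level of 10 mural and smooth muscle markers was 188, 125 and 205 FPKM at day 9 and 153, 187 and 269 FPKM at day 6 in the same order of cultures. The sum did not follow the order of Pdgfrb on either day. Of the 8 markers of that list that were tested, 5 were higher and 3 lower under depletion at day 6 (median 0.19). At day 9, 3 were higher and 5 lower (median -0.23). Only Rgs5 of that list, a pericyte marker, followed the order of Pdgfrb on both days. It read 8.23, 2.45 and 0.0957 FPKM at day 6 and 1.62, 0.944 and 0.0445 FPKM at day 9. The summed cardiomyocyte markers also followed that order (62.3, 23.1 and 11.3 FPKM at day 6). Of the 9 fibroblast markers, Col3a1, Postn, Lum and Dcn did so at day 9, with 65.1, 27.2 and 1.15 FPKM for Col3a1, and the first 3 of them at day 6. None of the markers in these 3 lists passed the adjusted threshold of limma for depletion on either day, and the part of these cell types in the result was not tested.

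Camk2a (61085285 to 61147806), a calcium/calmodulin-dependent kinase gene known from neurons, stood apart in 1 library. It read 0.984, 0.479, 1.26 and 3.62 FPKM with the scrambled hairpin, 0.682, 0.625, 0.852 and 1.10 FPKM with hairpin A and 0.957, 0.382, 0.857 and 1.11 FPKM with hairpin B. Only the scrambled day 9 library exceeded 1.26 FPKM among the 12, and the status of the scrambled and hairpin A values of day 3 was low data. The difference at day 9 was -1.13 ± 0.28 on the log2 scale (limma, adjusted p = 0.873) and was alike in the hairpins, at -1.139 for A and -1.13 for B. Of the 8 neuronal markers listed, 4 were tested and 0 passed, with a median of -0.12.

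On the log2(FPKM + 1) scale both hairpins were at least 2-fold lower than the scrambled library in Pdgfrb at day 6 and in Camk2a and Mir145 at day 9. This was 1 of 23 genes (4.35%) beside 0.68% of all genes at day 6, and 2 of 23 (8.7%) beside 0.659% at day 9. A count of 1 or 2 genes, 1 of them the 71 bp locus, is too few to set the members apart. At days 0 and 3 there was no such gene in the set (background 0.241% and 0.269%). On the same scale no gene of the set was at least 2-fold higher in both hairpins on any day, where the background was 0.149%, 0.135%, 0.354% and 0.191% at days 0, 3, 6 and 9. The added 1 shrinks ratios of low values. In FPKM itself both hairpins were also at least 2-fold lower in Pdgfrb at day 9, and at least 2-fold higher in Cd74 at day 0 and in Arsi at day 3, where Arsi read at most 0.205 FPKM. The share of all genes was not computed in FPKM itself, so these 3 cases have no background beside them. With any size of difference, both hairpins were above the scrambled library in 11 genes at day 0 (47.8%, background 32%) and in 3 at day 6 (13%, background 27.8%), and below it in 4 (17.4%, background 29.9%) and 11 (47.8%, background 33.4%). At day 3 the counts were 9 above (39.1%, background 26.7%) and 4 below (17.4%, background 27.8%), and at day 9 they were 8 above (34.8%, background 22.3%) and 9 below (39.1%, background 34.2%). Since both hairpins share the scrambled library, a high or low value in that library alone gives such a count.

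**Figure D2:**
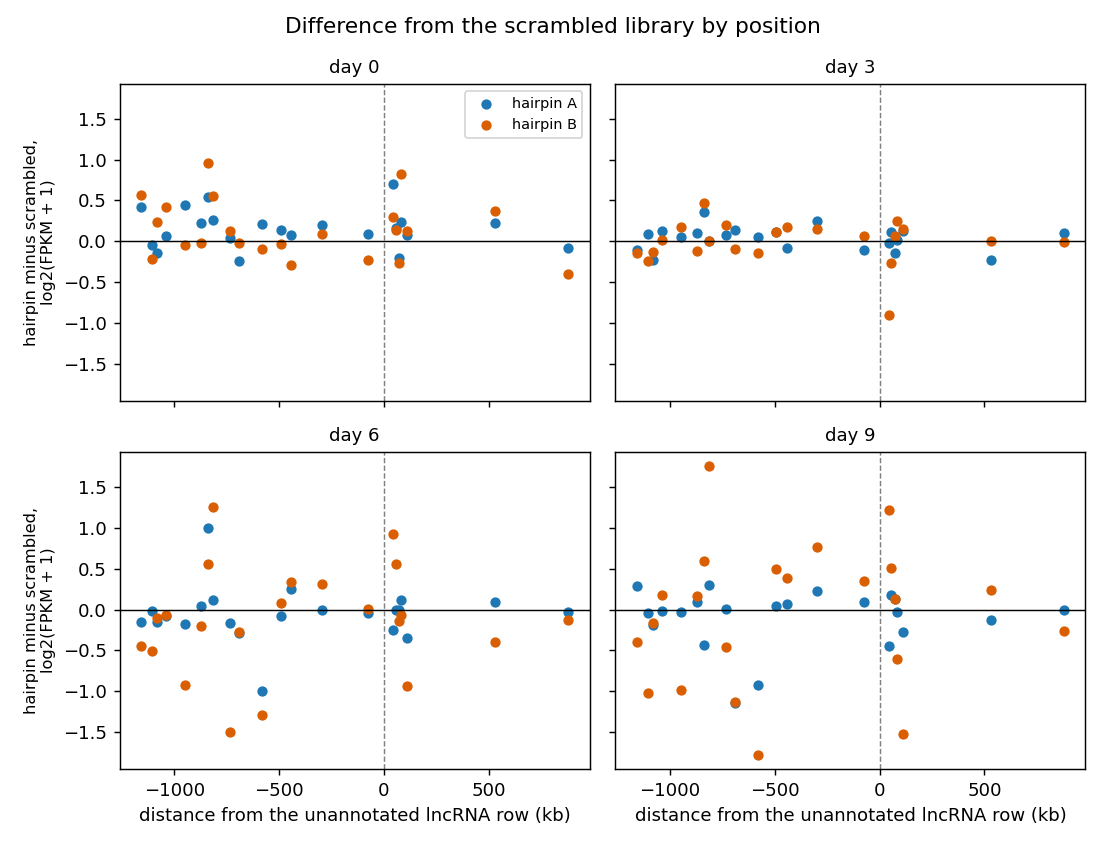
The horizontal axis is the distance of the middle of each of 22 genes (all tested genes but Mir145) from the unannotated noncoding row, in kb, and the vertical axis the hairpin value minus the scrambled value in log2(FPKM + 1), 1 panel per day. Blue points are hairpin A and orange points hairpin B. Points of hairpin B spread further at days 6 and 9, with a median absolute difference of 0.37 and 0.51 against 0.11 and 0.13 for hairpin A, at short and long distances.

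Differences near the unannotated row and further away were of similar size in the 22 tested genes other than Mir145. Mir145, 0.5 kb from the unannotated row and left out of these medians for its length of 71 bp, had the largest differences of the set, at -8.67 in both hairpins at day 9 and 7.83 in hairpin A at day 0. At day 9 the 6 other genes within 100 kb had a median absolute difference of 0.15 with hairpin A and 0.56 with hairpin B. The 16 genes further away had 0.11 and 0.48, and all genes tested had 0.14 and 0.51. At day 6 the nearer genes had 0.08 and 0.35, the further genes 0.13 and 0.37, and all genes 0.13 and 0.33. These are descriptions of 1 library each. The 6 tested genes in the 2.5 Mb before the window had a median depletion difference of -0.64 at day 9 and the 10 tested genes in the 2.5 Mb after it -0.14, beside -0.13 for the 323 tested genes elsewhere on chromosome 18 and 0.05 for the 23 members.

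Further tested genes of the set were Cd74 and Arsi. Cd74, the invariant chain of antigen presentation and a cytokine receptor subunit, read 0.795, 2.17, 1.27 and 0.632 FPKM with the scrambled hairpin, 1.62, 3.08, 3.55 and 0.209 FPKM with hairpin A and 2.49, 3.39, 2.33 and 1.47 FPKM with hairpin B. Both hairpins were above the scrambled library at days 0, 3 and 6, by a mean of 0.75, 0.42 and 0.78 on the log2 scale, and none of these differences passed (limma, adjusted p = 1 for each). The scrambled day 6 and hairpin B day 9 values of Cd74 had the status low data. Arsi, an arylsulfatase gene, was near the floor at days 0 and 3 in all cultures. It read 0.106, 0.0515, 5.11 and 1.59 FPKM with the scrambled hairpin, 0.132, 0.110, 4.47 and 1.61 FPKM with hairpin A and 0.206, 0.205, 1.16 and 0.893 FPKM with hairpin B on the 4 days. Each culture had its highest value at day 6, and the hairpin B value of that day was the lowest of the 3.

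Genes of matrix and cell shape were Ndst1, Slc26a2, Synpo and 2010002N04Rik (RefSeq Smim3). Ndst1, which sulfates heparan chains, read 6.26, 6.70, 13.4 and 14.9 FPKM in the scrambled, 8.90, 6.98, 11.8 and 14.6 FPKM in the hairpin A and 6.02, 7.66, 6.63 and 7.02 FPKM in the hairpin B culture. Its scrambled and hairpin A values of days 6 and 9 lay above all others, while hairpin B stayed within 6.02 to 7.66 FPKM. Slc26a2, a sulfate transporter gene, kept between 6.00 and 8.77 FPKM, with 8.27, 6.39, 6.68 and 6.16 FPKM in the scrambled, 8.77, 6.00, 8.104 and 6.53 FPKM in the hairpin A and 6.59, 7.33, 8.67 and 8.33 FPKM in the hairpin B culture. Synpo, for the actin-binding protein synaptopodin, read 1.24, 0.210, 1.36 and 1.73 FPKM with the scrambled hairpin, 1.35, 0.319, 1.24 and 1.69 FPKM with hairpin A and 1.99, 0.219, 1.26 and 2.09 FPKM with hairpin B. All 3 day 3 values of Synpo lay below all 9 others. The small membrane protein gene 2010002N04Rik read 3.33, 6.40, 8.55 and 6.23 FPKM, 4.78, 5.90, 7.61 and 7.85 FPKM and 5.43, 5.73, 6.03 and 4.49 FPKM under the scrambled, A and B hairpins, with its lowest value in the scrambled day 0 library.

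Genes of growth and metabolism were Tcof1, Rps14 and Ppargc1b. Tcof1, whose protein treacle supports ribosomal RNA synthesis, read 51.9, 73.9, 26.5 and 14.1 FPKM in the scrambled, 62.3, 74.3, 28.7 and 17.5 FPKM in the hairpin A and 76.8, 74.0, 64.3 and 49.7 FPKM in the hairpin B culture. Its levels were nearly equal in the 3 cultures at day 3, and at day 9 hairpin B was far above the others. Rps14, a ribosomal protein gene for which processed copies elsewhere in the genome make read assignment uncertain, was the most abundant at 1604, 1587, 1874 and 1976 FPKM with the scrambled hairpin, 1867, 1697, 1924 and 2104 FPKM with hairpin A and 1576, 1458, 1627 and 2214 FPKM with hairpin B. The cultures differed little in it. Ppargc1b, a coactivator gene of mitochondrial genes, read 2.07, 2.74, 1.15 and 0.752 FPKM in the scrambled, 2.53, 3.46, 1.141 and 1.05 FPKM in the hairpin A and 2.26, 3.14, 1.67 and 1.99 FPKM in the hairpin B culture. Its day 3 value was the highest of each culture, and at days 6 and 9 hairpin B was the highest library.

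The remaining tested genes have housekeeping or nuclear roles. Dctn4, a dynactin subunit gene, read 24.4, 21.3, 32.3 and 41.6 FPKM in the scrambled, 23.6, 22.7, 32.0 and 40.5 FPKM in the hairpin A and 20.8, 17.9, 22.4 and 19.9 FPKM in the hairpin B culture. At day 9 its scrambled and hairpin A values were close and hairpin B stood 1.03 lower than the scrambled library on the log2 scale. Rbm22, a splicing factor gene, ranged from 35.3 to 50.3 FPKM, with 42.5, 46.4, 40.6 and 40.3 FPKM in the scrambled, 38.3, 39.5, 36.4 and 35.3 FPKM in the hairpin A and 50.3, 42.1, 37.9 and 35.8 FPKM in the hairpin B culture. Hmgxb3, a gene with a DNA-binding HMG box, read 15.9, 17.4, 13.1 and 11.0 FPKM with the scrambled hairpin, 17.6, 18.9, 12.3 and 11.4 FPKM with hairpin A and 15.5, 18.9, 13.9 and 16.0 FPKM with hairpin B. Fbxo38, a ubiquitin ligase adaptor gene 856.8 kb beyond the unannotated row, ranged from 27.4 to 41.7 FPKM. It read 36.6, 29.2, 35.7 and 41.7 FPKM in the scrambled, 34.5, 31.3, 35.1 and 41.4 FPKM in the hairpin A and 27.4, 29.0, 32.7 and 34.6 FPKM in the hairpin B culture. Its hairpin B values were the lowest of each day.

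**Figure D3:**
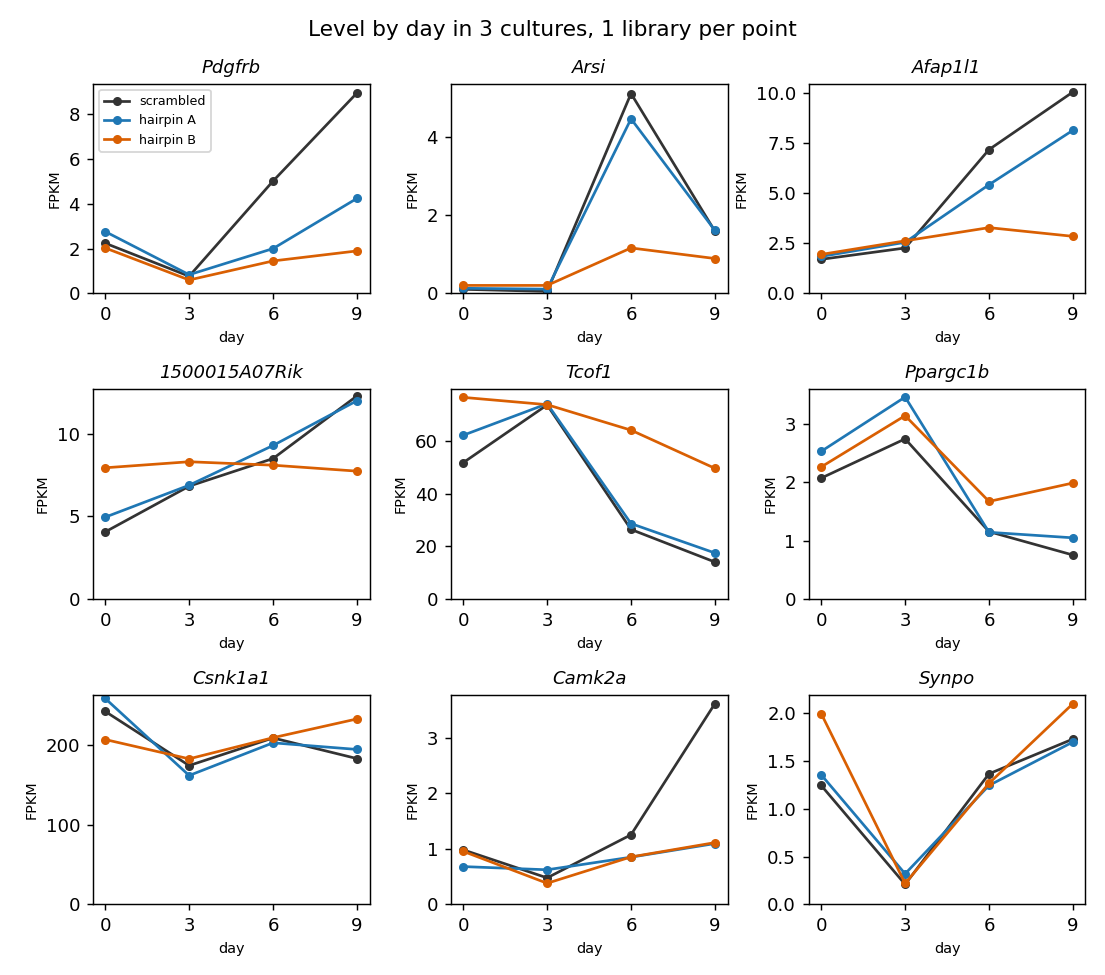
Each panel plots the FPKM of 1 gene against the day, with 1 point per library and 1 line per culture (black scrambled, blue hairpin A, orange hairpin B), on axes that start at 0. The hairpin A line follows the scrambled line in Arsi, Afap1l1, 1500015A07Rik and Tcof1, whereas in Pdgfrb it lies between the others at day 9 (4.23 FPKM against 8.92 and 1.89) and in Camk2a it lies with hairpin B (1.10 and 1.11 FPKM).

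Differentiation itself was compared across the 3 cultures, each later day against day 0, with limma. Synpo fell at day 3 by 1.01 ± 0.16 (SE) on the log2 scale (limma, adjusted p = 0.00821), lower in 3 of 3 cultures. It was 1 of 23 genes, where 6.04% of all genes tested passed. All 9 fibroblast and feeder markers were also lower at day 3 (median -2.05), and 3 of them passed. In the discovery set Synpo was highest in MEF, at 201.1 CPM. The part of fibroblasts in its fall was not tested. Arsi rose at day 6 by 1.86 ± 0.34 (limma, adjusted p = 0.0162), higher in 3 of 3 cultures and again 1 of 23, where 8.68% of all genes passed. At day 9, 4 of 23 genes passed (17.4%), where 16.6% of all genes did. Afap1l1 rose by 1.37 ± 0.34 (limma, adjusted p = 0.0351) and 1500015A07Rik by 0.83 ± 0.23 (limma, adjusted p = 0.0436). Tcof1 fell by 1.40 ± 0.39 (limma, adjusted p = 0.0433) and Pcyox1l fell by 0.62 ± 0.18 (limma, adjusted p = 0.0483). Afap1l1, Tcof1 and Pcyox1l moved the same way in 3 of 3 cultures, and 1500015A07Rik in 2 of 3, with -0.03 in hairpin B. The median change of the 23 genes was -0.09, -0.0077 and 0.18 at days 3, 6 and 9, beside 0.01, 0.07 and 0.10 over all genes.

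These calls rest on few libraries. When only the library of day 0 and that of the compared day were left out for the scrambled culture, or for hairpin A, 0 of the calls at days 3, 6 and 9 were left (adjusted p up to 0.118 for Synpo, 0.245 for Arsi and 0.351 for 1500015A07Rik). Without that pair of hairpin B libraries the call of Synpo at day 3 was also lost, the call of Arsi stayed and 14 genes passed at day 9. Without a filter on low values 1 gene passed at day 9, Csf1r, and the 4 above did not. With the culture as a block, 2 genes passed at day 6 (Arsi and Afap1l1) and 6 at day 9, where Arsi and Ppargc1b joined the 4.

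Because hairpin B stood apart, the course was also fitted without its 4 libraries, a choice made after seeing the data. In the scrambled and hairpin A cultures 5, 12 and 15 of 23 genes then passed at days 3, 6 and 9, where 35.9%, 52.9% and 65.1% of all genes did, so the shares of 21.7%, 52.2% and 65.2% were at or under the background. At day 9, 8 genes rose (34.8%, background 38.2%) and 7 fell (30.4%, background 26.9%). Genes that rose were Afap1l1 (1.86 ± 0.16, limma, adjusted p = 0.000232), 1500015A07Rik (1.26 ± 0.11), Arsi (1.22 ± 0.13), Pdgfrb (1.05 ± 0.34, limma, adjusted p = 0.0343), Ndst1, Dctn4, 2010002N04Rik and Fbxo38. Genes that fell were Tcof1 (-1.79 ± 0.09, limma, adjusted p = 6.40e-05), Il17b (-1.52 ± 0.28), Ppargc1b (-0.80 ± 0.13), Pcyox1l (-0.74 ± 0.09), Hmgxb3, Csnk1a1 and Slc26a2. Csnk1a1 was already lower at day 3 (-0.57 ± 0.08, limma, adjusted p = 0.00469) and stayed lower at day 6 (-0.28 ± 0.08) and day 9 (-0.41 ± 0.08). Of the 6 tested protein-coding or long noncoding genes within 100 kb of the unannotated row, Csnk1a1, Il17b and Pcyox1l fell, 1500015A07Rik and Afap1l1 rose and Grpel2 did not pass at day 9 (0.05 ± 0.11).

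In the discovery set 27 of the 38 rows reached at least 1 CPM in at least 2 of the 8 libraries and were tested with edgeR's quasi-likelihood test on rounded expected counts, over 16773 genes. The libraries held between 7536503 and 23662593 expected counts. The fibroblast label was checked by 9 fibroblast markers, which summed to 75620 CPM in MEF against 1305 to 3202 CPM in the other 7 libraries, and the stem cell labels by 8 pluripotency markers, which summed to 2619 to 4162 CPM in mESC and 71.5 CPM in MEF. That sum was 10800 and 10300 CPM in the lines 11.3 and 11.5, mostly from Pou5f1 (Oct4) and Klf4, which these lines carry as transgenes, so it does not set stem cells apart from them. Nanog, which is not among the transgenes, read 0.282 and 0.960 CPM in the lines and 226 to 284 CPM in mESC. MEF and miPS had 1 library each and were assumed to vary like the groups with 2. The comparisons below share libraries, so their calls are not independent.

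Between mESC and MEF, 6 of 27 genes passed (22.2%), where 28.6% of all genes did. Pdgfrb had 332 CPM in MEF and 9.34, 12.997, 11.99 and 11.7 CPM in the v6.5 and E14 libraries, a log2 difference of -5.21 ± 0.65 (SE, edgeR, adjusted p = 0.00418). Csf1r, the receptor gene next to Pdgfrb that is known from macrophages, had 22.7 CPM in MEF and 0.0893 to 0.235 CPM in mESC (-7.50 ± 0.52, edgeR, adjusted p = 0.00182). The 8 macrophage markers measured there summed to 49.6 CPM in MEF and 13.2 to 51.4 CPM in mESC, where Cd68 alone gave 40.1 CPM of the highest sum. All 4 of these markers that were tested had a negative difference (median -2.11), and 1 passed, Cd14, at 5.71 CPM in MEF and 0.169 to 1.02 CPM in mESC. Ptprc, Cx3cr1, Fcgr1 and Aif1, too low to be tested, were also highest in MEF, and the markers' part in the level of Csf1r was not tested. Synpo had 201.1 CPM in MEF and 4.99 to 10.3 CPM in mESC, and 2010002N04Rik had 20.7 CPM and 1.90 to 4.35 CPM. Ndst1 had 108.1 CPM in MEF and 18.7 to 24.2 CPM in mESC (-2.67 ± 0.25, edgeR, adjusted p = 0.00206). Tcof1 was the 1 gene higher in mESC, at 237 to 339 CPM against 86.6 CPM (1.40 ± 0.36, edgeR, adjusted p = 0.0339). All 4 mESC libraries lay on the same side of the MEF library for these 6 genes. Without either E14 library the calls of 2010002N04Rik, Synpo and Tcof1 were lost, with adjusted p up to 0.0763, 0.0546 and 0.116 in edgeR, and 3 of 27 genes passed. Without v6.5 replicate 1 or 2 the count rose to 10 and 11.

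The partially reprogrammed lines differed from MEF in 5 of 27 genes (18.5%), all lower, where 13.8% of all genes passed and 8.87% were lower. Pdgfrb had 1.19 CPM in line 11.3 and 0 counts in line 11.5, against 332 CPM in MEF (edgeR, log2 difference -9.46 ± 1.05, adjusted p = 0.00426). Csf1r and Arsi rounded to 0 counts in both lines, so that MEF was at least 57.1-fold higher in Csf1r and at least 5.45-fold higher in Arsi, against a floor of 3 counts per library. Synpo differed widely between the lines, at 0.929 CPM in 11.3 and 17.1 CPM in 11.5, and 2010002N04Rik had 0.663 and 2.78 CPM. The calls of Arsi, 2010002N04Rik and Synpo were lost without either E14 library, with adjusted p up to 0.071, 0.0867 and 0.0944 in edgeR, and 2 of 27 genes were left. Without TMM scaling Synpo also lost its call and Tcof1 gained one. Arsi was also lost without either line and 2010002N04Rik without line 11.3, where 3 genes were left. Without either v6.5 library 10 genes passed.

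Between mESC and the partially reprogrammed lines 8 of 27 genes passed (29.6%), where 29.7% of all genes did. Pdgfrb was higher in all 4 mESC libraries (4.25 ± 0.85, edgeR, adjusted p = 0.0151), and so was Afap1l1, at 2.32 to 8.44 CPM against 0.929 and 0.662 CPM (2.42 ± 0.58, edgeR, adjusted p = 0.0264). Cd74 had 1.65 to 6.27 CPM in mESC against 0.531 and 0.265 CPM (2.84 ± 0.66, edgeR, adjusted p = 0.0238). Slc6a7, Ablim3 and Arsi had 0 counts in both lines, so that the mESC mean was at least 5.40-fold, 3.59-fold and 2.60-fold higher. For Arsi that mean came mostly from v6.5 (2.05 and 1.24 CPM). Its E14 libraries read 0.470 and 0.380 CPM, near the floor of 0.398 CPM used for the bound. Ndst1 was lower in mESC, at 18.7 to 24.2 CPM against 70.8 and 85.8 CPM in the lines (-1.82 ± 0.21, edgeR, adjusted p = 0.00308). The median difference over the 27 genes was 0.59, also with genes at 0 set to their bound, beside 0.05 over all genes.

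Feeder use also differed in this comparison, since the lines 11.3 and 11.5 had none. Feeder use and cell type therefore cannot be told apart here. The 10 mural and smooth muscle markers summed to 439 to 1666 CPM in mESC, 47.7 and 157 CPM in the lines and 12060 CPM in MEF. Notch3 was the largest part of each mESC sum, at 199 to 1018 CPM. It read 2.65 and 1.85 CPM in the lines and 87.6 CPM in MEF. Of the 9 markers of that list tested, 8 were lower in mESC than in MEF. Rgs5 was at 0 in both lines, but also in v6.5 replicate 1 and miPS, and at most 0.242 CPM in the other mESC libraries. The 9 fibroblast markers summed to 2209 to 3202 CPM in mESC and to 1305 and 2144 CPM in the lines, and most of each sum was Fn1 (1721 to 2620 CPM and 1172 and 1968 CPM). Of the 8 fibroblast markers tested 7 had a higher level in mESC, with a median difference of 4.10 on the log2 scale, and 4 passed as higher and 1 as lower (S100a4). Col1a2 had 167 to 239.5 CPM in mESC against 19.8 and 2.00 CPM in the lines. Col1a1, Col3a1 and Dcn were at 0 in line 11.5, where Dcn was also low in mESC (0.294 to 1.61 CPM). Lum was at 0 in both lines, but also in v6.5 replicate 1, and at most 0.484 CPM in the other mESC libraries. The part of the fibroblast and mural markers in the higher Pdgfrb of mESC was not tested. Without either E14 library 3 of 27 genes passed (Pdgfrb and Ndst1 among them), without line 11.3 or 11.5 there were 4 and 5, and without v6.5 replicate 1 or 2 there were 18 and 14. Cd74, Afap1l1, Arsi and Slc6a7 lost their calls without either line or either E14 library, and Ablim3 without either E14 library.

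**Figure D4:**
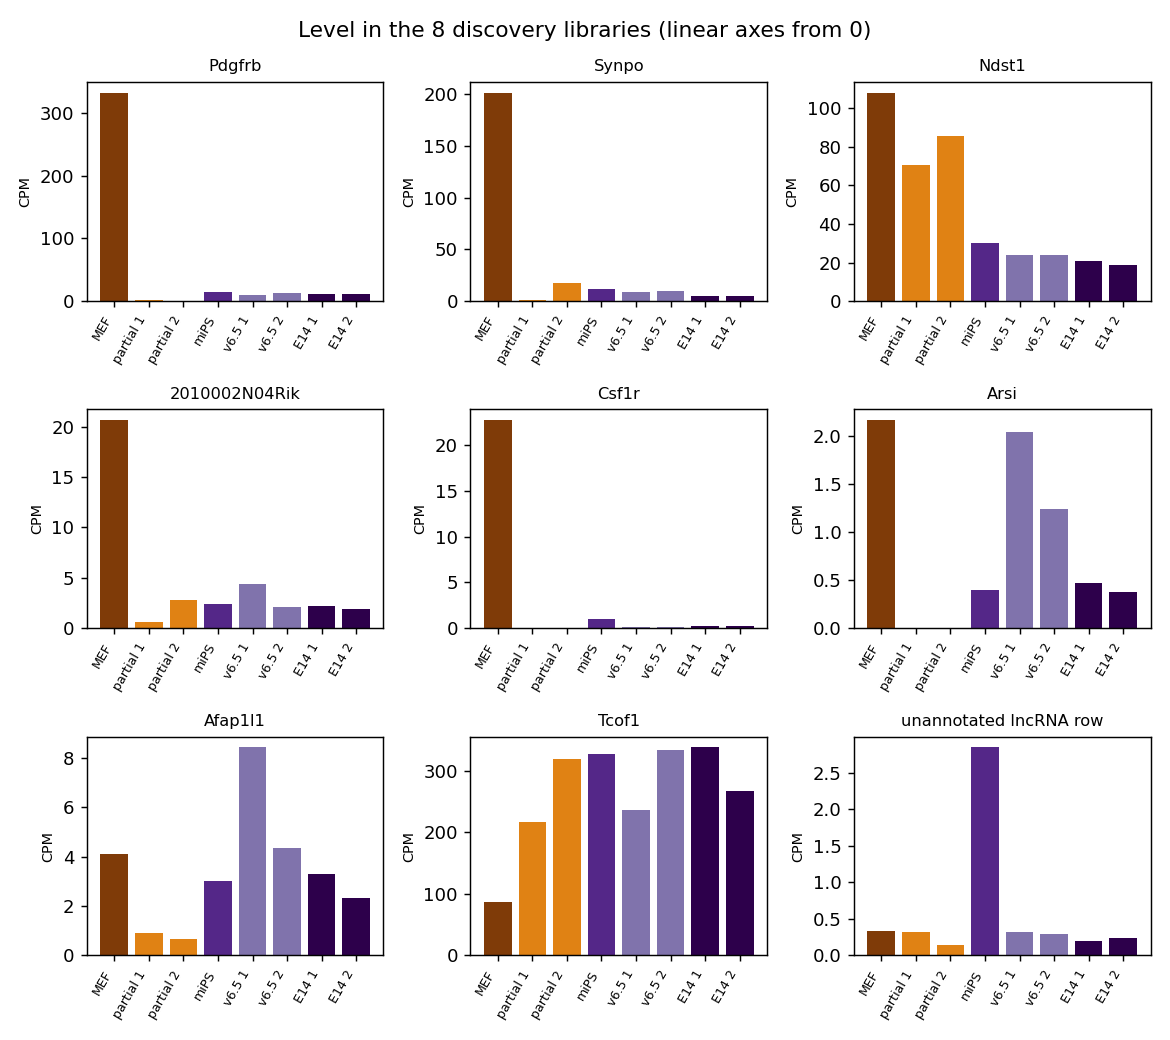
Bars give the CPM of 9 rows in each of the 8 discovery libraries on linear axes from 0, with 1 bar per library and no error bars. Pdgfrb, Synpo, Ndst1, 2010002N04Rik and Csf1r are highest in MEF, and the unannotated row is highest in miPS (2.85 CPM).

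The induced pluripotent line and the stem cell lines did not separate in these genes by the tests run. Between miPS and mESC 0 of 27 genes passed with edgeR, 2 were under an unadjusted p of 0.05 and DESeq2 and limma also called 0. The background was 0.0298% at the adjusted threshold and 7.95% unadjusted. Those 2 were Csf1r, at 1.05 CPM in miPS, and Sh3tc2, at 7.81 CPM in miPS and 1.76 to 3.23 CPM in mESC (edgeR, adjusted p = 0.435 and 0.445). Between E14 and v6.5 0 of 27 passed with edgeR, 1 was under an unadjusted p of 0.05 (Arsi, lower in E14) and DESeq2 and limma called 0. There the background was 0.489% and 18.7%. Without v6.5 replicate 2, 3 genes passed (Cd74, Csnk1a1 and Slc26a2).

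The unannotated noncoding row between Csnk1a1 and Mir145, 2063 bp long, fell under the filter and was not tested. Its expected count was 21.7 in miPS and 1.08 to 5.78 in the other 7 libraries. In miPS this was 2.85 CPM, with an exact Poisson 95% interval of 1.81 to 4.37 CPM on the rounded count of 22. In the other libraries it was between 0.144 and 0.329 CPM, where the highest upper limit was 1.00 CPM (MEF). The miPS library thus lay above the intervals of the others, which cover counting error only and compare libraries, not conditions. The expected counts were not whole in any of the 8 libraries, as happens when reads are shared with other rows.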

How the data were processed

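RNA sequencing libraries of mouse cells were made from bead-purified mRNA, per the labels' protocols. Time course values are FPKM that the authors made on mm9 with Cufflinks 1.3.0 after TopHat 1.14 and Bowtie 0.12.7, per the submitters' processing notes. The deposited status column of each value (no unit, held as other) was low data for 12 of 444 member values and failed for 0. The discovery table holds expected counts and TPM that the authors made with TopHat 1.3 and RSEM, per the submitters' processing notes. The 16 deposited columns of FPKM bounds were not used here. Expected counts were rounded to whole numbers for edgeR, and CPM was computed from them, since the deposited TPM is above 0 for some genes with no count.

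The members, gene lists and tests were chosen with earlier results of these data known. All members were accounted for in chromosome order, those reaching 1 FPKM in 2 or more libraries with every value, except 1 gene that is included in the counts and not reported here. Tests were named for members that passed. Where none passed, the 3 members with the largest difference were taken, with the same sign in both hairpins for depletion on a single day. The alternatives were counted for all of these, and the text prints the tests of only some. Pdgfra and single marker genes were added beside a member's result.

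Time course: limma 3.58.1 (R 4.3.3, trended eBayes) on log2(FPKM + 1), which understates changes of low genes. Depletion was fitted over 12 libraries in 8 groups (4 residual degrees of freedom), and days over 3 cultures with depletion as covariate (7). Discovery: edgeR 4.0.16 quasi-likelihood with TMM, 5 groups (3). All tests were two-sided with Benjamini-Hochberg adjustment over all genes tested and a threshold of 0.05. Gene order and symbols came from RefSeq (GRCm38.p6), which gives no coordinates here. Alternatives were pseudocount 0.1, no filter, median-ratio scaling, loci under 300 bp left out, DESeq2 1.42.0, no TMM, limma on log2(TPM + 1), the replicate block and each library left out. Scripts were tested on simulated data. Figures used Python 3.11.15 with matplotlib 3.10.9.

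Culture pairs the time course libraries, since each culture is 1 line followed over the days, and deviations from the day means correlated from -0.0910 to 0.642 within a culture. Libraries of a discovery pair differed by more than sampling noise (chi-square per degree of freedom 19.4 to 133.1). Intervals and floors cover counting error only.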

Additional observations from a re-analysis of the deposited data

Results flagged for a closer look

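Of 27 groups of 4 mESC libraries, 1 per tested gene, 1 had a library far from the others. The gene 2010002N04Rik stood at 4.35 CPM in v6.5 replicate 1 and between 1.90 and 2.23 CPM in the other 3 libraries, and the gap took 0.864 of the range. Chance flags about 1 in 20 such groups.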

How the results depend on the processing

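Of the values for single genes with a test, 394 under an alternative kept their direction and their side of the threshold, 52 kept the direction and lost the call, 1 gained a call (Cd74, E14 against v6.5 without v6.5 replicate 2, -1.76) and 1 reversed (Cdx1, E14 against v6.5, -1.33, ranging from -2.22 without v6.5 replicate 2 to 1.15 without v6.5 replicate 1). Without a filter on low values the counts became 1 for depletion at day 9 and 1 in the mean over days (Spink13 both times, listed above 0 in 1 library), 2 at day 3, 1 at day 9 8 for the partially reprogrammed lines against MEF, 12 for mESC against partial (8 with the filter) and 8 for mESC against MEF (6 with it). Without TMM the count for partial against MEF stayed at 5, with Synpo lost and Tcof1 gained. Median-ratio scaling lost 1500015A07Rik at day 9. The replicate block, by culture, gave 2 genes at day 6, as printed with the course, and changed no depletion call. In the discovery set v6.5 and E14 share only a number (correlation 0.321), and its block gave 6, 9 and 6 genes for mESC against MEF, mESC against partial and partial against MEF. With libraries left out in turn, counts ran from 0 to 1 for depletion at day 0 (Mir145 without hairpin B), 0 to 0 at day 3, 0 to 1 at day 6 and 0 to 14 at day 9 against day 0, 3 to 11 for mESC against MEF, 3 to 18 for mESC against partial, 2 to 10 for partial against MEF and 0 to 3 for E14 against v6.5. Without the hairpin B culture, chosen after seeing the data, 5, 12 and 15 genes passed at days 3, 6 and 9. The cause was not tested. The depletion test rests on 1 scrambled library a day, and changes near the floor of 3 reads were not detectable.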

Other observations

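Genes of the window under the filter kept some order of their own. Ablim3, for an actin-binding protein, lies 152.1 kb beyond the unannotated row. It read 0.526 to 0.635 FPKM at day 0 and 0.741 to 1.138 FPKM at day 3. At days 6 and 9 it read 0.166 to 0.227 FPKM and 0.064 to 0.411 FPKM, so that all 3 values of day 3 lay above the 9 others. Its status was low data in 6 of 12 libraries. Csf1r was listed at 0 in all 3 libraries of day 3 and read 0.366, 0.698 and 0.894 FPKM at day 9 under the scrambled, A and B hairpins. Cdx1, a posterior homeobox gene, read 2.12 FPKM in hairpin B at day 0, against 0.519 and 0.649 FPKM in the other cultures of that day. Iigp1, an interferon-induced GTPase gene, read 0.654, 1.10 and 0.326 FPKM at day 6 under the scrambled, A and B hairpins and at most 0.044 FPKM at day 3. Most of these values are near the floor of 3 reads, and these genes were under the filter of the time course tests.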
